A study of Homo sapiens with 4 samples.

Results

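The genes described here take up, store and sense iron in K562 cells, a human leukemia line with erythroid features. They were chosen by name, as the rows of the deposited gene table whose symbol is *TFRC*, *TFR2*, *STEAP3*, *HFE*, *FTH1*, *FTL*, *NCOA4*, *ACO1*, *IREB2* or *FBXL5*. Of these 10 genes, 9 are among the 10147 genes of the table, and *HFE* was not analysed here. RNA synthesis was measured by TT-seq, in which new RNA is labelled with 4-thiouridine (here at 500 µM for 5 min), pulled down and sequenced. All cells carried an N-terminal dTAG on endogenous IWS1, a factor bound to elongating RNA polymerase II, in an edited line that the controls share. The 2 samples called dIWS1 were treated with 500 nM dTAG7 for 1 h, which degrades the tagged protein, and the 2 control samples received the solvent DMSO for the same time.

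The table gives a mean over 4 library columns for each gene, from which whole reads per column were worked out. This gave 3 different columns, taken here to mean that the control reads entered each mean 2 times as an identical column. That reading was inferred from the means and was not tested separately. The control is therefore treated as 1 sample, the spread between controls is unknown, and p-values rest on the spread between the 2 dIWS1 columns, pooled over genes of like level. These columns carry no replicate number. Summed over genes, the control column held 29832118 reads, dIWS1 column 1 held 20684301 and column 2 held 20886697. Reads were divided by the authors' spike-in size factors ("scaled reads"). In bulk libraries, fewer cells and less labelled RNA per cell cannot be told apart. Of 15 markers of K562 cells, 12 are in the table, with mean normalized counts from 115 to 4500 (not *GFI1B*, *HBA1* and *HBA2*). *IWS1* itself had 3684 control reads and 2334 and 2427 in the dIWS1 columns, but dTAG7 acts on the protein, so this transcript does not check the depletion. None of 8 markers of lymphoid, epithelial, liver, stromal or monocytic cells is listed, in a table that the authors limited to expressed genes.

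Iron reaches erythroid cells bound to transferrin. The transferrin receptor carries it into endosomes, a ferrireductase reduces it there, and what is not used for heme or iron-sulfur clusters is stored in ferritin, a shell of heavy and light chains. When iron is scarce, the iron regulatory proteins IRP1 and IRP2 bind a hairpin, the iron-responsive element, in mRNAs of the system. They block translation from a hairpin in the 5′ UTR and protect the mRNA from decay through hairpins in the 3′ UTR. This control acts on finished mRNA, whereas TT-seq reads synthesis of the transcript in introns and exons alike.

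The hairpins are shown because they are the sites in the transcripts through which this control acts. The canonical GENCODE transcripts (release 44, GRCh38) were searched for a bulged C, an upper stem of 5 pairs around the loop CAGTGN with any last base but G, and at least 3 of 5 pairs in the lower stem, on the strand of the transcript. Of 19701 coding transcripts, 33 (0.168%) held such a site in a UTR. Among the 10 genes, the ferritin chains each held 1 in the 5′ UTR and *TFRC* held 4 in the 3′ UTR. The bulged C and the loop are in capitals. The sites lie at chr11:61967575-61967601 (minus strand) for *FTH1*, at chr19:48965336-48965362 (plus strand) for *FTL*, and at chr3:196050980-196051006 and chr3:196050464-196050490 (minus strand) for the outermost sites of *TFRC* that the search found:
FTH1: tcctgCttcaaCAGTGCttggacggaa
FTL: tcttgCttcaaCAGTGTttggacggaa
TFRC first site: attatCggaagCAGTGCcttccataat
TFRC last site: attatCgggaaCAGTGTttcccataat
No site of this form was found in the UTRs of the canonical transcripts of *TFR2*, *STEAP3*, *HFE*, *NCOA4*, *ACO1*, *IREB2* or *FBXL5*, which says only that these letters are not there.

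In the control column, synthesis of the 9 genes spanned a wide range, and levels between genes are compared per kb of RefSeq gene span (assembly GRCh38.p14). The ferritin genes were highest, with 1035 scaled reads per kb for *FTL* and 1003 for *FTH1* in the control column. *TFRC* followed with 488, above 99.0% of all genes with a known span. *NCOA4* had 147 scaled reads per kb, *IREB2* 136, *TFR2* 83.7 and *FBXL5* 42.4. *STEAP3*, with 20.2, and *ACO1*, with 11.0 scaled reads per kb, were the lowest. The order of the ferritin genes is not fixed by these data, since *FTH1* lay above *FTL* in both dIWS1 columns (753 against 719 in column 1 and 792 against 704 in column 2). The other neighbours kept their order in all 3 columns. RefSeq lists 27 numbered pseudogenes of *FTH1*, 20 of *FTL* and 4 of *NCOA4*, none of them in the table. Only unique alignments were counted, so levels of these 3 genes are uncertain.

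**Figure D1:**
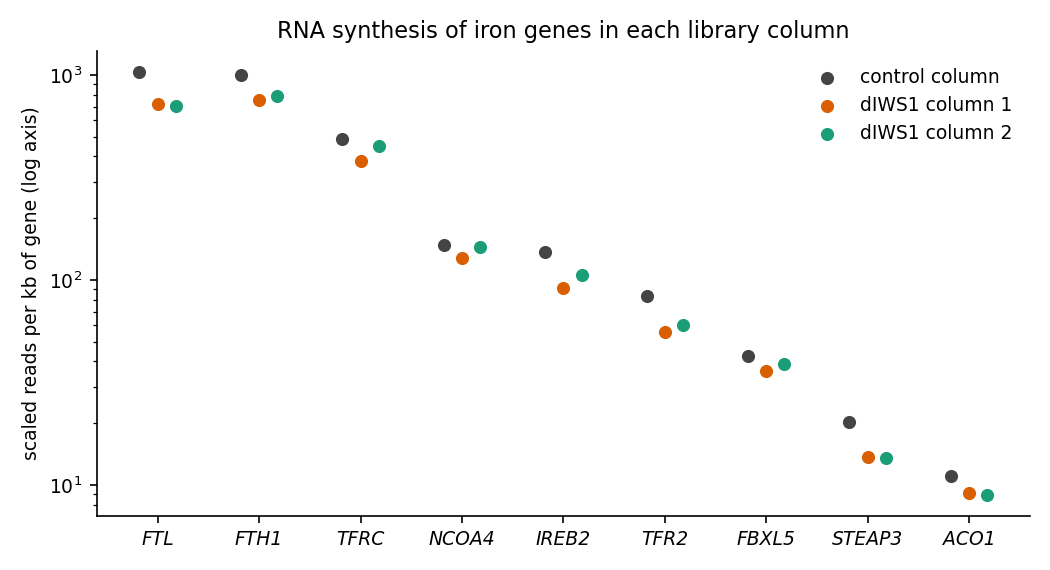
Scaled reads per kb of gene (log axis) for the 9 genes in the control column and in dIWS1 columns 1 and 2, each point 1 library column. *FTL* and *FTH1* lie at 1035 and 1003 in the control column, *ACO1* at 11.0, and in each gene both dIWS1 points lie below the control point.

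The comparison asked how RNA synthesis of each gene responded to the loss of IWS1. In all 9 genes both dIWS1 columns held fewer scaled reads than the control column. Most genes fell, with a fitted log2 fold change (dIWS1/control) below 0 in 9602 of the 9917 genes tested. Among the 9 genes, the fitted log2 fold changes ran from −0.57 for *STEAP3* to −0.11 for *NCOA4*, with a median of −0.38. Synthesis of 6 genes passed the test as lower (*STEAP3*, *FTL*, *TFR2*, *IREB2*, *FTH1* and *ACO1*), and 3 genes did not pass (*TFRC*, *FBXL5* and *NCOA4*). None of the 9 was called higher, at an unadjusted p under 0.05 either. Direction rests on the spike-in scale. With scaling by total reads in genes, 5 of the 9 lay above the control (*TFRC*, *FTH1*, *ACO1*, *NCOA4* and *FBXL5*). Of these, *TFRC*, *NCOA4* and *FBXL5* were called higher, and none of the 9 was called lower. That scaling called 1913 of the 9917 genes tested higher and 1398 lower. These calls used limma voom with Benjamini-Hochberg adjustment over all genes tested and an adjusted p under 0.05. On the spike-in scale, the test called 65.6% of the 9917 genes tested lower and 0.101% higher, so that 6 of 9 (66.7%) is near the background. The median log2 fold change over all genes was −0.42, and the quartiles were −0.60 and −0.26.

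Of the uptake genes, *TFR2* and *STEAP3* fell and *TFRC* did not pass. *TFRC* (chromosome 3, 196049284 to 196082090, minus strand, 19 exons) encodes transferrin receptor 1, the main route of iron into erythroid cells. The control held 16164 of its reads, against 12328 and 13632 in dIWS1 columns 1 and 2, the most of the 9 genes. After scaling these were 16010, 12412 and 14826, so that column 2 lay closer to the control than to column 1. The deposited mean alone allowed 2 sets of reads for this gene, and the authors' fold change decided between them. Against the control, column 1 stood at a log2 ratio of −0.37 (95% interval −0.40 to −0.33) and column 2 at −0.11 (−0.14 to −0.08), where intervals of single columns are Clopper-Pearson intervals and cover counting error only. The columns thus differed by more than counting error, in the direction of the offset over all genes (median log2 ratio of column 1 to column 2 −0.12). The fold change of −0.24 (SE 0.14) did not pass (limma voom, adjusted p = 0.125). Its SE comes from the spread shared by genes of like level, not from the distance between these 2 columns.

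*TFR2* (chromosome 7, 100620420 to 100641552, minus strand, 18 exons) encodes transferrin receptor 2, which senses transferrin-bound iron in liver and erythroid cells. From 1786 control reads it went to 1165 and 1166 in dIWS1 columns 1 and 2, or 1769, 1173 and 1268 after scaling. Both dIWS1 columns lay well below the control, and synthesis fell by 0.54 on the log2 scale (SE 0.14, limma voom adjusted p = 0.000569), to 31.0% less. *STEAP3* (chromosome 2, 119223834 to 119265652, plus strand, 6 exons), the endosomal ferrireductase of erythroid cells, had the lowest fold change of the 9 genes. Its 854 control reads compared with 570 and 517 in dIWS1 columns 1 and 2. The ratios of the 2 columns nearly coincided (−0.56 and −0.59), and the fold change was −0.57 (SE 0.13, limma voom adjusted p = 6.65e-05).

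Of the storage genes, both ferritin chains fell and the ferritin receptor did not pass. *FTL* (chromosome 19, 48965309 to 48966879, plus strand, 4 exons) encodes the light chain, which favours formation of the iron core. It had 1641 control reads and 1122 and 1017 in dIWS1 columns 1 and 2, with log2 ratios of −0.52 and −0.56. Its synthesis fell by 0.54 (log2, SE 0.14, limma voom adjusted p = 0.000454). *FTH1* (chromosome 11, 61964285 to 61967634, minus strand, 4 exons) encodes the heavy chain, the ferroxidase of the shell. Its reads were 3391, 2505 and 2441 in the same order, and the ratios were −0.41 and −0.34. The fold change of −0.38 (SE 0.15) passed with an adjusted p of 0.0219 (limma voom). It did not pass where limma was run on log2 scaled reads with a mean-variance trend instead of voom weights (adjusted p = 0.0683).

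*NCOA4* (chromosome 10, 46005088 to 46030623, minus strand, 10 exons) encodes the receptor that takes ferritin to the lysosome, where its iron is released. The control held 3801 reads and dIWS1 columns 1 and 2 held 3241 and 3413, or 3765, 3263 and 3712 after scaling. Column 2 was thus level with the control within counting error (log2 ratio −0.02, 95% interval −0.09 to 0.05), whereas column 1 lay below it (−0.21, −0.27 to −0.14). The fold change of −0.11 had an interval from −0.41 to 0.18 (limma voom, adjusted p = 0.493). Of all genes tested, 91.6% had a lower fold change than *NCOA4*.

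Of the sensors of cellular iron, both iron regulatory protein genes fell and *FBXL5* did not pass. *IREB2* (chromosome 15, 78437431 to 78501453, plus strand, 22 exons) encodes IRP2, which is destroyed when iron is plentiful. Its 8795 control reads compared with 5833 and 6243 in the dIWS1 columns, or 8711, 5873 and 6790 after scaling. Its ratios of −0.57 and −0.36 differed by more than counting error, and synthesis fell by 0.46 (log2, SE 0.15, limma voom adjusted p = 0.0043). *ACO1* (chromosome 9, 32384643 to 32454769, plus strand, 21 exons) encodes IRP1, which acts as cytosolic aconitase when it holds an iron-sulfur cluster. Its 780 control reads were the fewest of the 9 genes. In the dIWS1 columns it held 632 and 578, where *STEAP3* held fewer (570 and 517). The ratios of *ACO1* were −0.28 and −0.30. The fold change of −0.29 (SE 0.13) passed narrowly (limma voom, adjusted p = 0.0417). It did not pass with limma's trend in place of voom weights (adjusted p = 0.0847).

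*FBXL5* (chromosome 4, 15604381 to 15681569, minus strand, 11 exons) encodes the iron-binding subunit of the ubiquitin ligase that marks IRP2 for destruction. From 3304 control reads it went to 2750 and 2763 in the dIWS1 columns, or 3273, 2769 and 3005 after scaling. Both ratios lay below 0 (−0.24 and −0.12), and the fold change of −0.18 had an interval from −0.48 to 0.11 (limma voom, adjusted p = 0.266). With the control entered 2 times, as inferred for the deposited means, it passed as lower (limma voom, adjusted p = 0.0437). That setting takes the spread between controls as 0.

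**Figure D2:**
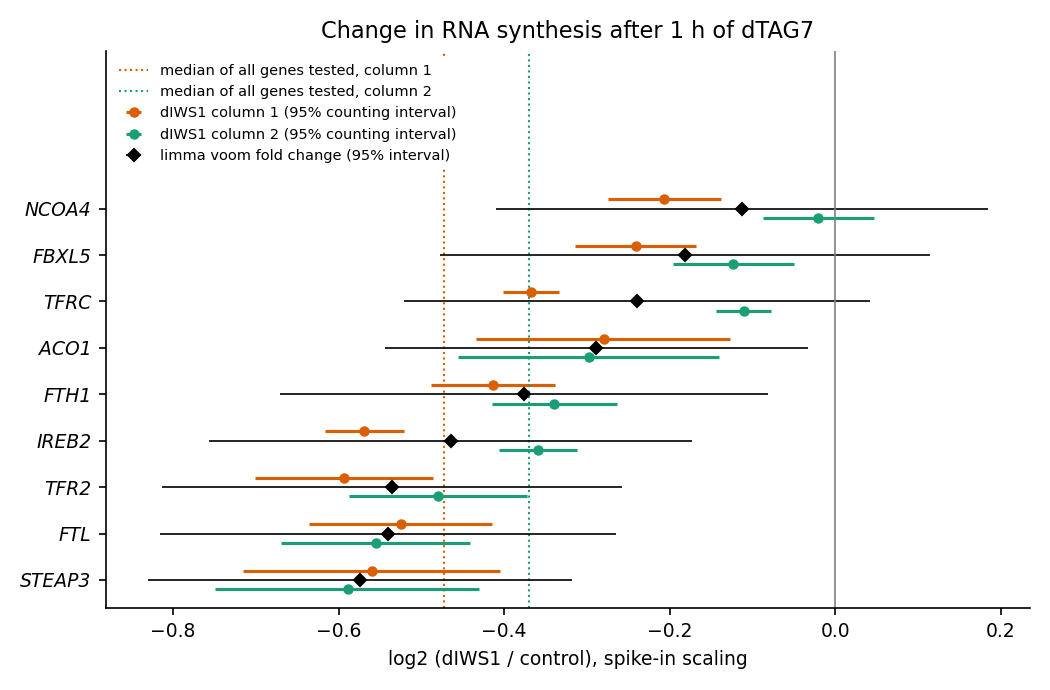
Log2 ratio of each dIWS1 column to the control column (circles, 95% counting interval) and the limma voom fold change (diamonds, 95% interval) for the 9 genes on the spike-in scale, sorted by fold change. The dotted lines are the medians of all genes tested, −0.47 in column 1 and −0.37 in column 2. In both columns *NCOA4*, *FBXL5*, *TFRC*, *ACO1* and *FTH1* lie to the right of the column's own line. *STEAP3*, *FTL* and *TFR2* lie to the left in both, and *IREB2* lies to the left in column 1 and near the line in column 2.

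Since nearly all genes shifted together, each gene was also set against the median gene. With a common shift for both dIWS1 columns, 5 genes lay above the median gene (*NCOA4* by 0.31, *FBXL5* by 0.24, *TFRC* by 0.18, *ACO1* by 0.14 and *FTH1* by 0.05) and 4 below it (*IREB2* at −0.04, *TFR2* at −0.11, *FTL* at −0.12 and *STEAP3* at −0.15). No gene of the set passed limma voom's test of this distance (adjusted p from 0.203 to 0.901). At an unadjusted p under 0.05, *NCOA4* alone passed. The share of all genes that pass at that threshold was not counted, so whether this is unusual cannot be told. At an adjusted p under 0.05, this test called 4.86% of all genes lower and 2.98% higher than the median gene.

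Column 1 itself stood below column 2, with a median log2 ratio between them of −0.12 over genes. With each column set against its own median gene, a setting added after the values were seen, the offset no longer entered the spread. *NCOA4* then lay 0.31 above the median gene (0.27 in column 1 and 0.35 in column 2, SE 0.08, limma voom adjusted p = 0.000549). *FBXL5* lay 0.24 above it (0.23 and 0.25, SE 0.08, adjusted p = 0.00964), and *TFRC* 0.18 (0.11 and 0.26, SE 0.07, adjusted p = 0.0235). The other 6 genes did not pass. This setting called 15.3% of all genes higher and 15.1% lower than the median gene, against 3 of 9 and 0 of 9 here. A distance above the median gene is a smaller reduction than that of most genes, and on the spike-in scale none of the 3 genes was above the control.

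The 9 genes differed widely in length, and their spans ran from 1.57 kb (*FTL*) to 77.2 kb (*FBXL5*). In classes bounded at 10, 26.5 and 65 kb, the median log2 fold change of all genes was −0.48 in the shortest, −0.39 in the short, −0.35 in the long and −0.49 in the longest class. The longest of the 9, *FBXL5* and *ACO1*, lay 0.31 and 0.20 above their class median. Of the short genes, *NCOA4* lay 0.28 above its class median and *TFR2* lay below it (−0.14). *STEAP3* and *IREB2*, both long genes, lay below theirs (−0.23 and −0.12), and *TFRC*, of the same class, lay 0.11 above. The shortest genes differed in direction, *FTH1* at 0.11 above and *FTL* at −0.06. These distances are descriptions without a test.

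Ratios of a gene pair within a column do not depend on the library scaling. Such ratios were taken for 6 pairs of genes that work together or resemble each other, chosen with the values known. The ratio of *TFRC* to *TFR2* reads was higher by 0.23 (log2) in dIWS1 column 1 (95% counting interval 0.11 to 0.34) and by 0.37 in column 2 (0.26 to 0.48) against the control column. Per kb, this took *TFRC* from 5.83 times the level of *TFR2* in the control to 6.82 and 7.53 times. *FBXL5* was higher relative to *IREB2* by 0.33 (0.24 to 0.41) and 0.24 (0.15 to 0.32). *NCOA4* was higher relative to *FTH1* by 0.21 (0.11 to 0.31) and 0.32 (0.22 to 0.42), and *TFRC* relative to *STEAP3* by 0.19 (0.04 to 0.35) and 0.48 (0.32 to 0.64).

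For the remaining pairs the interval included 0 in 1 column. *FTH1* against *FTL* changed by 0.11 (−0.02 to 0.24) in column 1 and 0.22 (0.08 to 0.35) in column 2. *IREB2* against *ACO1* changed by −0.29 (−0.45 to −0.13) and −0.06 (−0.22 to 0.10). With 1 control column, none of these changes has a replicate test.

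**Figure D3:**
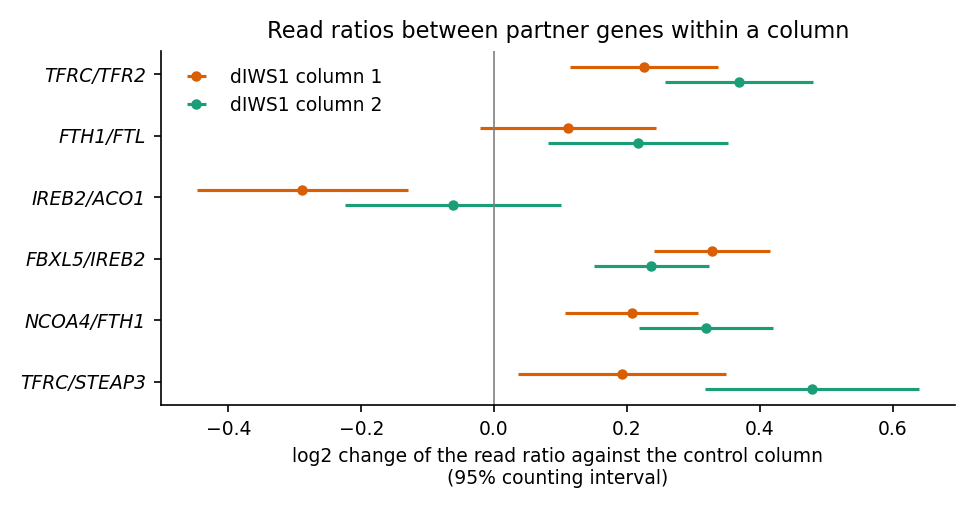
Change of the read ratio between 2 genes in each dIWS1 column against the control column (log2, 95% counting interval), independent of library scaling. *TFRC*/*TFR2*, *FBXL5*/*IREB2*, *NCOA4*/*FTH1* and *TFRC*/*STEAP3* lie above 0 in both columns; *FTH1*/*FTL* and *IREB2*/*ACO1* reach 0 in 1 column.

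A wider list of 83 genes of iron handling was described by the same fit, without the 10 genes above. Of these, 64 were in the table and tested, and 38 (59.4%) were called lower, against 65.6% of all genes tested, with a median of −0.39 against −0.42. None was called higher, at an unadjusted p under 0.05 either. Relative to the median gene with a common shift, 2 of the 64 were called higher and none lower, against 2.98% and 4.86% of all genes. With each column set against its own median gene, 15 were called higher (15.3% over all genes) and 6 lower (15.1% over all genes). The groups below are small, and the share of each that was called lower stands beside the same 65.6% of all genes, without a test of the difference.

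Among the genes of uptake and reduction, 2 of 6 (33.3%, against 65.6% of all genes) were called lower. *EXOC6*, a subunit of the exocyst that takes part in transferrin recycling, had a log2 fold change of −0.55 (ratios −0.59 and −0.51). *SLC11A2*, the transporter DMT1 that moves iron out of endosomes, fell by 0.43 (log2, limma voom adjusted p = 0.00706). *CYBRD1*, a ferric reductase, was at −0.19 and was not called. In storage and ferritin turnover, 2 of 3 genes (66.7%, against 65.6%) were called lower. *HERC2*, a ubiquitin ligase for *NCOA4* protein, fell by 0.71 (log2), with 11590 control reads and 6637 and 6731 in the dIWS1 columns. *TAX1BP1*, an autophagy receptor that acts with *NCOA4*, was at −0.22 and was not called, as was *NCOA4* itself.

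In export and systemic control, 3 of 4 genes (75.0%, against 65.6%) were called lower. Among them, *HJV* (listed as *HFE2*) and *ERFE* (listed as *FAM132B*) were sparse, with 45 and 57 control reads. *HEPH*, a ferroxidase, fell by 0.55 (log2). *SLC40A1*, which encodes ferroportin, the iron exporter of cells, was at −0.06 (SE 0.14, limma voom adjusted p = 0.724). Its 1748 control reads compared with 1470 and 1720 in the dIWS1 columns, so that column 2 lay above the control after scaling (log2 ratios −0.23 and 0.11). It lay 0.37 above the median gene with a common shift, which did not pass (limma voom, adjusted p = 0.0919), and 0.36 above it with each column set against its own median gene, which did (adjusted p = 9.25e-05).

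Of 7 partners of iron sensing, 2 (28.6%, against 65.6%) were called lower. *EPAS1*, the hypoxia factor HIF-2α, had the lowest fold change of this group (−0.58, limma voom adjusted p = 0.000395). *SKP1*, which joins *FBXL5* in the ubiquitin ligase, had the highest (−0.13, not called), with ratios of −0.20 and −0.05. *CUL1*, the scaffold of the same ligase, was at −0.26 and *RBX1* at −0.27, neither of them called.

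The mitochondrial genes of iron import and iron-sulfur cluster assembly were the largest group, with 15 of 25 called lower (against 65.6% of all genes) and a median of −0.40. *NUBPL*, an assembly factor of respiratory complex I, was lowest among those whose mean reached 100 normalized counts (−0.72, limma voom adjusted p = 1.33e-05). *SLC25A37*, mitoferrin 1, the mitochondrial iron importer of erythroid cells, fell by 0.57 (log2) in both columns alike. *ISCA1*, a late cluster assembly factor, held 829 control reads and 811 and 813 in the dIWS1 columns, and its fold change of 0.05 was the highest of the 64. It lay 0.47 above the median gene (limma voom with a common shift, adjusted p = 0.00889).

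In cytosolic iron-sulfur cluster assembly, 9 of 12 genes (75.0%, against 65.6%) were called lower. *CIAO3* (in the table under its older symbol *NARFL*) was lowest (−0.90), with 184 control reads and ratios that differed between columns (−1.18 and −0.62). *YAE1* (there as *YAE1D1*) was highest (0.03), 0.45 above the median gene (adjusted p = 0.0187). Of the genes of heme breakdown and transport, 5 of 7 were called lower (71.4%, against 65.6%), in a narrow range from −0.47 for *SLC48A1*, a heme transporter, to −0.29 for *BACH1*, the heme-sensing repressor of heme oxygenase and ferritin genes, which was not called (limma voom, adjusted p = 0.0718). *HMOX1* was not analysed here.

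**Figure D4:**
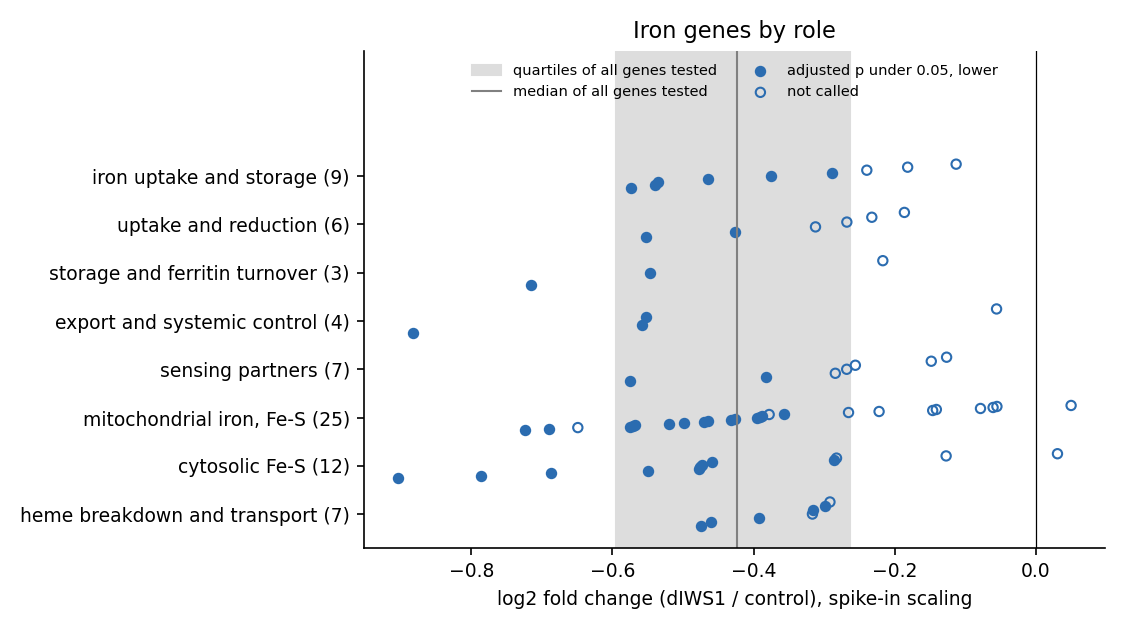
Log2 fold change (dIWS1/control, spike-in scaling) of the 9 iron uptake and storage genes and of the 64 other iron genes by role, each point 1 gene, filled where called lower. The grey band spans the quartiles of all genes tested (−0.60 to −0.26) around their median of −0.42, and nearly all points lie below 0.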

How the data were processed

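TT-seq libraries were made from K562 cells with dTAG-IWS1 (2 control and 2 dIWS1 samples). Per the paper's methods and the submitters' processing notes, read pairs were aligned with STAR 2.6.0 to GRCh38 plus spike-ins, counted per RefSeq gene with strand, and scaled in DESeq2 by spike-in size factors. The authors deposited 1 table. It holds a signal per gene, the mean of counts divided by size factors, and the authors' own log2 fold changes, standard errors and p-values. No value of the authors' comparison is printed here. Their log2 fold change was used to tell which side each recovered column stands on and, for genes with larger means, to narrow the search for whole reads; reads of such genes are therefore not independent of it.

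The smallest means gave 3 steps, the worth of 1 read in each column. With that narrowing, all 10136 means above 0 split into whole multiples of the steps in 1 way. Without it, 8 of the 9 genes had 1 solution and *TFRC* had 2. Size factors were 1.01 (control), 0.993 and 0.919. Genes whose mean reached 10 normalized counts were fitted across all genes with limma 3.58.1 voom in R 4.3.3, library sizes set by the size factors, and 1 residual degree of freedom. The estimated prior degrees of freedom were infinite, so each gene's SE came from the spread shared by all genes at its level rather than from its own columns. The fit was also run on simulated data with the same spread in every column and no offset between columns. That run cannot show how the calls bear an unknown spread between controls. The study's methods call the samples biological replicates; p-values here rest on 2 dIWS1 columns and 1 control. No count model was run on the recovered reads. RefSeq spans (GRCh38.p14) were found for 10088 genes. The text names the 9 genes, *IWS1*, the lowest and highest gene of each role group with a mean of at least 100, and *SLC40A1*, *SLC11A2*, *SLC25A37*, *HMOX1* and *BACH1*. *CUL1*, *RBX1*, *HJV* and *ERFE* were added with their values known. The members and lists were chosen with earlier results of these data known. Alternatives were other scalings, filters, thresholds and fits. Python 3.11.15, pandas 2.3.3, scipy 1.17.1 and matplotlib 3.10.9 were used.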

Additional observations from a re-analysis of the deposited data

How the results depend on the processing

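The results depended mostly on the scaling, since another scaling by construction removes the common reduction. With a common shift to the median gene, 482 genes were called lower and 296 higher, 0 of the 9 genes lower, and 0 lower and 2 higher of the wider iron list. With scaling by total reads in genes, 1398 were lower and 1913 higher, 0 and 3 of the 9 genes, and 4 and 18 of the iron list. With each dIWS1 column set against its own median gene, a setting added after seeing the data, 1497 were lower and 1515 higher, 0 and 3 of the 9, and 6 and 15 of the iron list. In that order of settings, the median log2 value of the 9 genes was 0.048, 0.066 and 0.045, that of *TFRC* 0.18, 0.20 and 0.18, *TFR2* −0.11, −0.094 and −0.11, *FTH1* 0.048, 0.066 and 0.045, *FTL* −0.12, −0.10 and −0.12, *IREB2* −0.041, −0.022 and −0.043, *ACO1* 0.14, 0.15 and 0.13, *NCOA4* 0.31, 0.33 and 0.31, *STEAP3* −0.15, −0.13 and −0.15, and *FBXL5* 0.24, 0.26 and 0.24. *TFRC*, *NCOA4* and *FBXL5*, not called on the spike-in scale, were those of the 9 genes called higher under the last 2 of these settings (limma voom, adjusted p from 0.000204 to 0.0235). With no filter on low means, or a mean of at least 100, the 9 genes kept their direction and their calls. With the control entered 2 times, 7824 genes were called lower and 46 higher. Of the 9 genes 7 were then called lower, with *FBXL5* (−0.18) added. With limma's trend at a pseudocount of 0.5 or 2, *FTH1* (−0.38) and *ACO1* (−0.29) did not pass; the cause was not tested. At an adjusted p under 0.01, 6 genes were higher and *FTH1* (−0.38) and *ACO1* (−0.29) did not pass, and under 0.1, 18 were higher. Leaving out either dIWS1 column left single ratios without a test, with a median of the 9 genes from −0.41 to −0.34 and all 9 below 0. No paired analysis was possible because the recovered columns carry no replicate numbers. With 1 control column, the spread between controls limits every call.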
